A study of Homo sapiens with 2 samples.

Results

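The cytochrome P450 genes of Hep3B cells were compared between a SOX4 knockout line and its parental line. Members were all genes whose only symbol in the platform annotation is CYP followed by digits, a letter and digits, with the sterol synthesis gene CYP51A1 left out. The rule found 50 genes among 33616 genes with a single symbol. Hep3B is an established human hepatocellular carcinoma line, and total RNA of each line was hybridised to 1 Affymetrix whole-transcript array. The group labelled SOX4 KO had the endogenous SOX4 gene edited with CRISPR/Cas9 and was kept in puromycin. The group labelled wildtype was the parental line, grown in the same medium without puromycin. The labels do not say whether the knockout line is 1 clone or a pool. Genotype, puromycin and the array therefore cannot be told apart, and with 1 array per genotype no test, error or p-value is given.

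Cytochrome P450s are heme enzymes that insert oxygen into small molecules with electrons passed on by reductases or ferredoxins. In the liver, enzymes of families 1 to 3 oxidise drugs and other foreign compounds, while other families make or clear bile acids, fatty acids, vitamins and steroid hormones. Many of their genes answer to ligand-bound receptors, among them the aryl hydrocarbon receptor (AHR), the nuclear receptors CAR and PXR, the vitamin D receptor and the retinoic acid receptors.

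All values are the deposited log2 values, and all differences are knockout minus parental. Medians over all 135750 transcript clusters were 3.80 in the knockout and 3.83 in the parental array, and the highest values were 19.80 and 19.82, more than a 16-bit scanner can give on a log2 scale, so folds hold on the deposited scale only. No detection calls were at hand. A gene was called above the level filter when the larger of its 2 values was over 4.78, the median of such larger values among all genes. SOX4 itself stood at 12.44 in the knockout and 13.14 in the parental array, a difference of -0.70, and an edit that does not remove the RNA would not be seen by the probes. All 11 measured hepatocyte markers lay above the filter in these arrays, among them albumin (ALB) at 18.84 and 18.87, although 9 of the 11 were lower in the knockout array. AFP stood at 9.73 against 15.50 and APOA1 at 11.27 against 12.44, the median difference was -0.30, and the summed log2 level was 178.7 against 187.1. AFP alone, at -5.77, made up most of the gap between these sums. Of all 16808 genes above the filter, 8953 had a difference above 0.

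Of the 50 P450 genes, 17 lay above the level filter and 33 did not. Of the 17, 3 (CYP1A1, CYP24A1 and CYP3A5) were higher in the knockout array by 2-fold or more, 1 (CYP2B6) was lower by 2-fold or more, and 13 were less than 2-fold apart. The shares of all genes above the filter that were 2-fold higher and lower were 6.50% and 3.64%, and those of protein-coding genes 8.30% and 4.30%. The members' shares, 17.6% and 5.88%, rest on 3 genes and 1 gene. Both arrays exceeded the filter for 15 of the 17 genes, and CYP11B1 and CYP4B1 passed through the parental array alone. The median difference over all 50 members was -0.02, beside 0.00 over all 33616 genes. In RNA of whole cultures, fewer cells with a transcript and less of it per cell cannot be told apart.

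**Figure D1:**
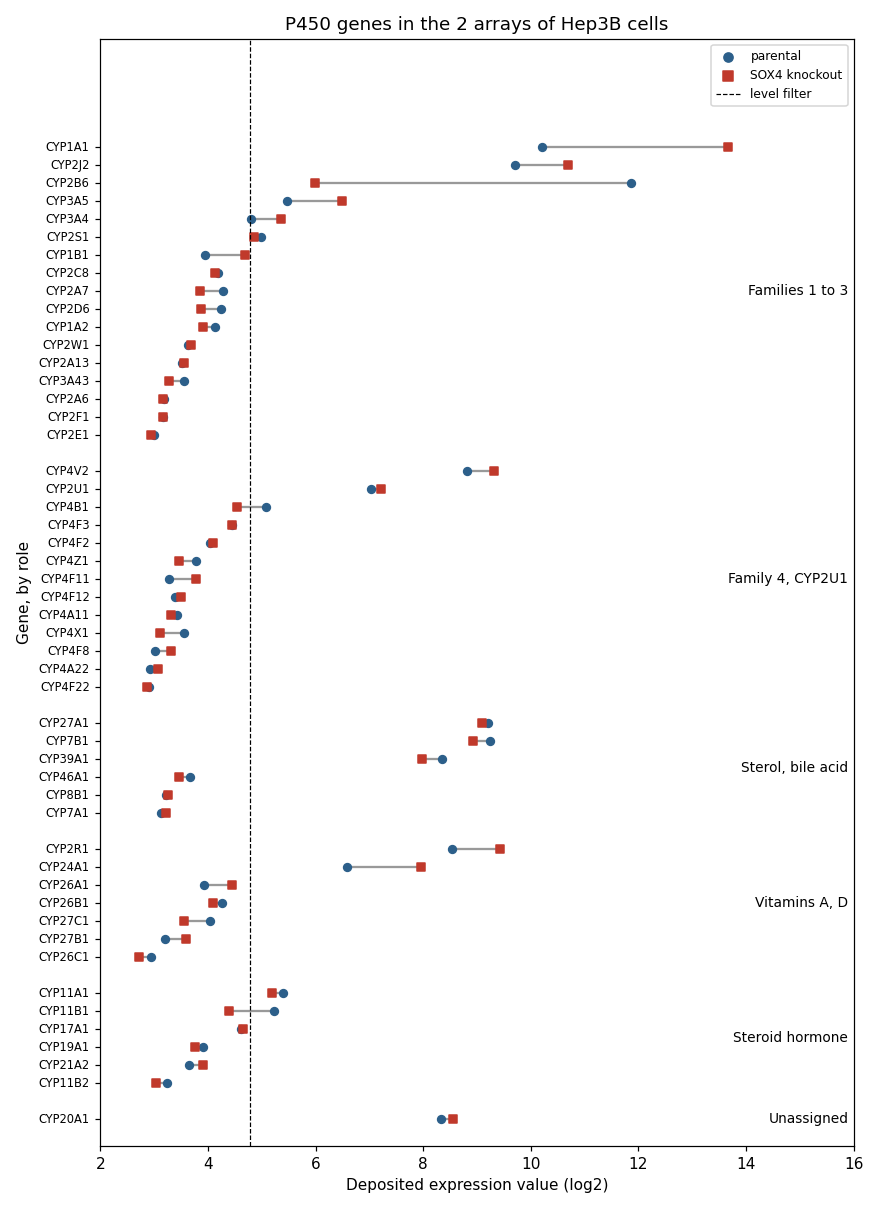
Deposited log2 value (horizontal axis) of each of the 50 P450 genes in the parental array (circles) and the SOX4 knockout array (squares), grouped by role, with 1 array per genotype and the level filter of 4.78 as a dashed line. CYP1A1 and CYP2B6 show the longest connecting lines, in opposite directions, while most other pairs of points lie close together.

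CYP2B6 and CYP1A1 differed most, in opposite directions. CYP2B6, which oxidises drugs such as cyclophosphamide and efavirenz and is known as a target of CAR and PXR, stood at 5.98 in the knockout and 11.87 in the parental array. The difference was -5.89, or 59.1-fold. With 1525 other genes above the filter whose mean level differed from its own by at most 0.5 log2, 0 showed as low a difference, and their differences had an SD of 0.76. CYP1A1, which oxidises polycyclic aromatic hydrocarbons and is the classic target of AHR, stood at 13.66 in the knockout and 10.21 in the parental array, which is 3.46 higher or 10.99-fold. Among 1165 genes of like level, 2 were higher by as much or more, and the SD was 0.65. Both genes exceeded the filter of 4.78 in both arrays.

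The core promoters of the members past 2-fold are shown because these genes differed in opposite directions. RefSeq promoter entries (GRCh38.p14, 250 bases before to 50 after the start) were at hand for 36 of the 50 members and for CYP1A1, CYP2B6 and CYP3A5 among those 4. Letters searched on both strands were GCGTG (the core bound by AHR with ARNT), TGACNNNGC (the core of antioxidant response elements), TATAAA (the TATA box), TTGCNNAA (C/EBP factors), AGGTCA (a nuclear receptor hexamer), GTTAAT (an HNF1 hexamer), and AACAAAG and AACAAT (forms bound by SOX factors). The reverse of the nuclear receptor hexamer can overlap the antioxidant core. Each sequence runs 5′ to 3′ along the gene's strand, and capitals mark every match.
CYP1A1, chr15:74725479-74725778, minus strand: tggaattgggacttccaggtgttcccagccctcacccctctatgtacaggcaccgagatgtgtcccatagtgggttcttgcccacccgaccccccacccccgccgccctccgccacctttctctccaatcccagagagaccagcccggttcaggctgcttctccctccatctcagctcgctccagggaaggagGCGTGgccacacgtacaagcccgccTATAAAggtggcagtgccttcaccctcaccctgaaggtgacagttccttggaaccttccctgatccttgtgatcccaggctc
CYP2B6, chr19:40991032-40991331, plus strand: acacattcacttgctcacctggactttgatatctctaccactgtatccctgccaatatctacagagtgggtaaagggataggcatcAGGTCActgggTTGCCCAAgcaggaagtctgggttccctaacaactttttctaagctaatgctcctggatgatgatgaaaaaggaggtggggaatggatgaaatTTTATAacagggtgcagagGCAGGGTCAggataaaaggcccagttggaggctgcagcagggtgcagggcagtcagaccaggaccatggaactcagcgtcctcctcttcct
CYP3A5, chr7:99679947-99680246, minus strand: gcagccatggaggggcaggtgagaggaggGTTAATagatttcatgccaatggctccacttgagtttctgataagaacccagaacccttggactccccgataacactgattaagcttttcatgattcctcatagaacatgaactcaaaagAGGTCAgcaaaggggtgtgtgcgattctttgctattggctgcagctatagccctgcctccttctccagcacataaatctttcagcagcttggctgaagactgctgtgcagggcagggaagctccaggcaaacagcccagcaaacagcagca

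In CYP1A1 the capitals are the AHR core, whose first base lies at -57 from the start, and a TATA box at -32. In CYP2B6 they are a nuclear receptor hexamer at -164, a C/EBP match at -153, the TATA letters on the opposite strand at -60 and the antioxidant core on the opposite strand at -41. In CYP3A5 they are an HNF1 hexamer at -221 and a nuclear receptor hexamer at -101. Neither SOX form was present in these 3 windows, while AACAAAG was present in 5.20% and AACAAT in 10.1% of all 35116 promoters in the table. Among the 36 members with an entry, AACAAAG was present in 5, of which 0 were above the level filter, and AACAAT in 3, of which CYP3A4 alone was above it. The AHR core was present in 36.5% of all promoters, in 10 of the 36 members with an entry, and in 6 of the 14 that also lay above the level filter. These were CYP1A1, CYP11A1, CYP20A1, CYP2J2, CYP2U1 and CYP4V2, of which only CYP1A1 was 2-fold apart. The nuclear receptor hexamer was present in 13.8% of all promoters, in 11 of the 36 members and in 6 of those 14. Shares of all promoters for the other letters were 13.3% for the antioxidant core, 11.5% for TATAAA, 10.5% for the C/EBP letters and 6.88% for the HNF1 hexamer. Such matches describe letters only and do not show binding. At the shares given for the SOX forms, their absence from 3 short windows was likely and says nothing about SOX4. Sequence outside the windows was not searched.

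Besides these enzymes, the drug-metabolising group included CYP2J2, CYP3A4, CYP3A5 and CYP2S1 above the filter. CYP3A5, which shares many drug substrates with CYP3A4, stood at 6.49 in the knockout and 5.47 in the parental array and was 1.03 higher, or 2.04-fold. It lay just past 2-fold and fell just short, at 0.997, after removal of the level trend. CYP3A4, the main drug-oxidising P450 of adult liver, stood at 5.36 against 4.79, a difference of 0.57. Its parental value lay almost on the filter, and the sequences of CYP3A genes are close, so that their probes may share signal and the split between CYP3A4 and CYP3A5 is uncertain. CYP2J2, which forms epoxides of arachidonic acid, stood at 10.70 against 9.71, a difference of 0.98 or 1.98-fold, just short of 2-fold. It passed 2-fold, at 1.02, when each array was centred on its median. CYP2S1, an enzyme of epithelia outside the liver, stood at 4.86 against 4.98.

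The other 11 drug-metabolising genes lay under the filter in both arrays. Their values ran from 2.95 to 4.68 and their differences from -0.44 to 0.74. CYP1B1 had the highest of these differences, at 4.68 against 3.94, or 1.67-fold. Like CYP1A1 it is known as an AHR target, while CYP1A2, the neighbour of CYP1A1 and another AHR target, stood at 3.90 against 4.14. CYP2E1, which oxidises ethanol, differed by -0.06, CYP2C8 at 4.12 against 4.18, and CYP2A6, the nicotine oxidase, at 3.16 against 3.19. These enzymes are abundant in adult liver, while here their values lay under the filter of 4.78 in both arrays. CYP2D6, a drug oxidase known for its inherited variation, was measured by 7 transcript clusters, whose differences ran from -0.55 to 0.28, and its highest-mean cluster stood at 3.87 against 4.24.

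The plot of difference against level sets these genes among all others. Members under the filter had an SD of the difference of 0.29, close to the 0.30 of all genes under the filter. Their differences were above 0 in 15 genes and below 0 in 18. For members above the filter the SD was 1.82, beside 0.70 for all genes above it, and it was 0.66 for the 15 members other than CYP2B6 and CYP1A1. The differences of these 17 members were above 0 in 9 and below 0 in 8.

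**Figure D2:**
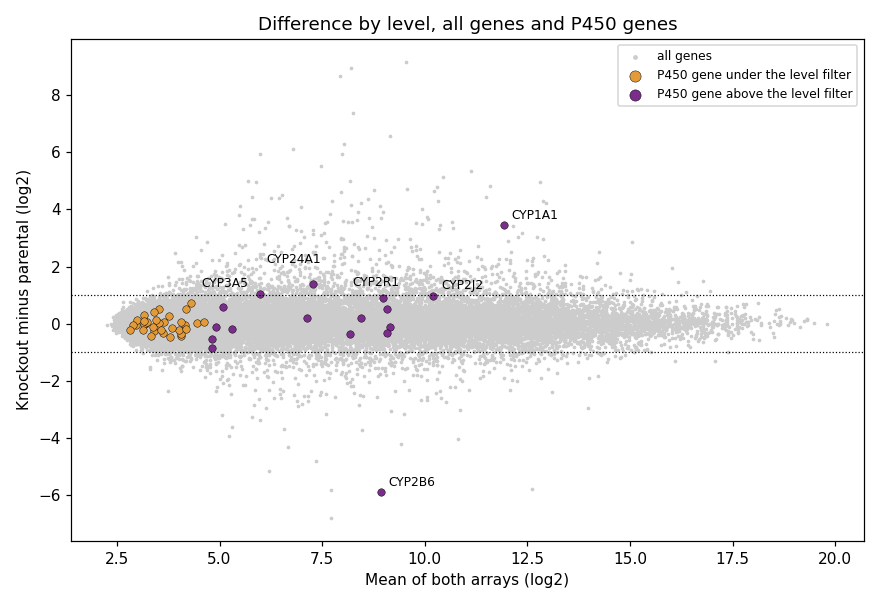
Difference between the arrays (vertical axis, knockout minus parental, log2) against the mean of both arrays (horizontal axis, log2) for all 33616 genes (grey) and for P450 genes above and under the level filter, with dotted lines at 2-fold. CYP2B6 at -5.89 and CYP1A1 at 3.46 stand apart from the bulk of genes of like level, and the P450 genes under the filter lie between -0.47 and 0.74.

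Among vitamin-related P450s, both genes above the filter had higher values in the knockout array. CYP24A1, which inactivates vitamin D and is the classic target of the vitamin D receptor, stood at 7.95 in the knockout and 6.58 in the parental array and was 1.37 higher, or 2.59-fold. Among 1728 genes of like level, 73 were higher by as much or more. CYP2R1, the liver enzyme that carries out the first hydroxylation of vitamin D, stood at 9.43 against 8.53, a difference of 0.90 or 1.87-fold. CYP27B1, which makes the active hormone and acts mainly in kidney, lay under the filter at 3.60 against 3.19. The vitamin D receptor gene VDR stood at 5.81 against 6.08, a difference of -0.27.

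The retinoic acid-clearing CYP26 genes all lay under the filter. CYP26A1, a target of retinoic acid receptors, stood at 4.44 against 3.92, and CYP26B1 and CYP26C1 differed by -0.18 and -0.21. CYP27C1, which desaturates retinoids, stood at 3.56 against 4.03. Of the receptors, RARB was 4.03-fold higher in the knockout array, at 8.77 against 6.76, whereas RARA differed by -0.21 and RARG lay under the filter. RARB is itself known as a target of retinoic acid.

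Sterol and bile acid P450s differed little. CYP27A1, the mitochondrial sterol hydroxylase of the acidic route to bile acids, stood at 9.08 in the knockout and 9.20 in the parental array. CYP7B1, an oxysterol hydroxylase of the same route, stood at 8.92 against 9.25, and CYP39A1, another oxysterol hydroxylase, at 7.98 against 8.35. The 3 differences, -0.11, -0.33 and -0.37, were all below 0 and less than 1.5-fold. Of all genes above the filter, 15.5% were at least 1.5-fold higher and 11.2% lower. CYP7A1, the rate-limiting enzyme of the classic route, was under the filter at 3.21 against 3.12, as were CYP8B1, which is needed for cholic acid, at 3.26 against 3.21 and the brain enzyme CYP46A1 at 3.47 against 3.67. In contrast, BAAT, the enzyme that conjugates bile acids with glycine or taurine, was 5.34 higher, at 13.79 against 8.45, and the bile acid reductase AKR1D1 stood at 4.46 against 5.59.

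Of 13 fatty acid P450s, 3 lay above the filter and none was 2-fold apart. Of all genes above the filter, 6.50% were 2-fold higher and 3.64% lower, so a count of 0 among 3 lies near these shares. CYP4V2, a fatty acid hydroxylase mutated in a retinal dystrophy, stood at 9.32 against 8.82, a difference of 0.51. CYP2U1, a fatty acid hydroxylase mutated in a form of spastic paraplegia, stood at 7.22 against 7.03, and CYP4B1 at 4.53 against 5.08, where the second of its clusters differed by -0.01. The other 10 lay under the filter with differences from -0.44 to 0.50, among them CYP4A11, the liver hydroxylase regulated by PPARA, at 3.31 against 3.43. All 6 CYP4F genes of chromosome 19 were among those, and CYP4F11 had the highest difference, at 3.77 against 3.27.

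Steroid hormone P450s act chiefly in adrenal gland and gonads. Of the 6, 2 lay above the filter and none was 2-fold apart. A count of 0 among 2 lies near the shares of all genes above the filter, 6.50% higher and 3.64% lower. CYP11A1, which cuts the side chain of cholesterol, stood at 5.20 against 5.40. CYP11B1, the last enzyme of cortisol synthesis, stood at 4.39 in the knockout and 5.23 in the parental array, which is -0.85 or 1.80-fold apart, with the knockout value under the filter. The other 4, CYP11B2, CYP17A1, CYP19A1 and CYP21A2, lay under the filter with differences from -0.20 to 0.25. Of 6 steroidogenic cell markers, STAR alone exceeded the filter, at 5.72 and 5.80, and the adrenal and gonadal factor NR5A1 did not. CYP20A1, a P450 without an assigned substrate, stood at 8.55 against 8.33.

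Many P450 genes lie in clusters, which allowed the members past 2-fold to be set beside their neighbours. Of all protein-coding genes above the filter, 8.30% were 2-fold higher and 4.30% lower. The 5 other CYP2 genes next to CYP2B6 on chromosome 19 had differences from -0.44 to 0.03, and CYP2S1 alone of them exceeded the filter. Of the 20 protein-coding genes nearest to CYP2B6 in RefSeq order (10 on each side), 12 exceeded the filter, 1 was 2-fold higher and none was 2-fold lower. Their median difference was -0.05, from -0.63 for EGLN2 to 1.78 for BLVRB, a biliverdin reductase gene. The pseudogene CYP2B7P, picked after its values were seen because its sequence is close to that of CYP2B6, stood at 2.55 in the knockout and 4.92 in the parental array, a difference of -2.36. It passed the filter through the parental array alone, and its knockout value was not shown to exceed background. Probes may share signal between these copies, so how their difference splits is uncertain.

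Around CYP1A1 on chromosome 15, 14 of 20 neighbours exceeded the filter, with 2 of them 2-fold higher (SEMA7A at 1.64 and FAM219B at 1.12), 1 lower (ARID3B at -1.03) and a median of 0.28. FAM219B, at 5.31 against 4.19, passed the filter through the knockout array alone. Around CYP24A1 on chromosome 20, the adjacent BCAS1 was also higher, at 7.89 against 5.96, a difference of 1.93. The other 14 neighbours above the filter were less than 2-fold apart, and the median of all 15 was -0.03. Around CYP3A5 on chromosome 7, none of 16 neighbours above the filter was 2-fold higher, 1 (ZNF3) stood at -1.79, and the median was -0.19. The shares over all protein-coding genes above the filter were 8.30% higher and 4.30% lower.

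**Figure D3:**
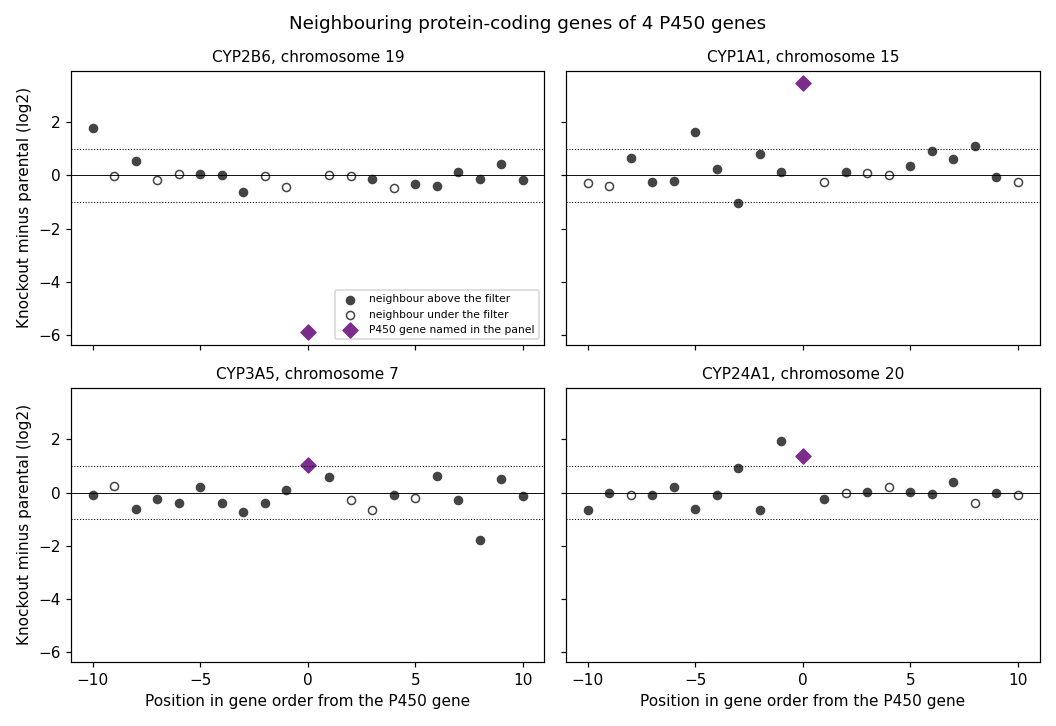
Difference (vertical axis, knockout minus parental, log2) of CYP2B6, CYP1A1, CYP3A5 and CYP24A1 (diamonds) and of the 10 nearest measured protein-coding genes on each side (circles, filled above the level filter and open under it), by position in RefSeq gene order (horizontal axis), with dotted lines at 2-fold. CYP2B6 stands at -5.89 among neighbours between -0.63 and 1.78, and BCAS1 at 1.93 lies next to CYP24A1.

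Genes that serve or regulate P450s were compared as lists. For comparison, 6.50% of all genes above the filter were 2-fold higher and 3.64% lower. Of 10 listed electron donors and heme-handling partners 9 were measured. The P450 reductase gene POR was the one without a value among genes with a single symbol, so nothing is said about it. Of the 9 measured, 8 exceeded the filter, 1 was 2-fold higher and none lower. CYB5R1, a cytochrome b5 reductase, stood at 11.21 against 9.80, a difference of 1.41. CYB5R3, the main cytochrome b5 reductase, was at 0.58, the mitochondrial electron donor FDX1 at 0.43, CYB5A at -0.32 and PGRMC1, a heme-binding partner of P450s, at -0.53. Of 6 heme synthesis genes above the filter, FECH, which inserts iron in the last step, was 2-fold higher, at 9.63 against 8.56 a difference of 1.07, but 0 genes of the list were 2-fold higher after removal of the level trend. UROS was at 0.64, and ALAS1, which controls the first step, stood at 9.85 against 9.97. The list medians were 0.33 for partners and 0.30 for heme synthesis over all measured members, beside 0.00 for all genes. Over genes above the filter they were 0.27 and 0.33, beside 0.04 for all such genes. After removal of the level trend the medians over all measured members were 0.30 and 0.20.

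The receptors and factors that act on P450 genes had 18 of 23 measured members above the filter, of which RARB alone was 2-fold apart. That count of 1 among 18 lies near the 6.50% of all genes above the filter that were 2-fold higher. The median over all 23 was 0.00. AHR stood at 18.17 against 17.48, a difference of 0.69, and its partner ARNT at 14.46 against 13.89, a difference of 0.57. PPARA was at 0.87 and the liver factor CEBPA at -0.89, and NR5A2, a nuclear receptor of bile acid synthesis, at -0.68. CAR itself (NR1I3) lay under the filter in both arrays, at 3.51 and 3.73. RXRA, a partner of CAR, PXR and the vitamin D and retinoic acid receptors, stood at exactly 5.06442 in both arrays. This difference of 0 is itself the list median, and why the 2 values are identical was not tested. The related RXRB was at 0.40.

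Other known targets of the same receptors included genes with higher and genes with lower values in the knockout array. Whether these receptors account for the P450 differences was not tested. Of 5 AHR targets above the filter, NQO1, a quinone reductase that is also a target of NRF2, was 3.05 higher, at 13.80 against 10.75. TIPARP, an AHR target that feeds back on the receptor, was at 0.65, the NRF2 gene NFE2L2 at 0.34, the amino acid transporter SLC7A5 at -0.48 and LRAT at -0.03, while ALDH3A1 lay under the filter at 4.10 against 3.96. Of 5 PXR and CAR targets above the filter, the drug efflux pump ABCB1 was 1.33 higher, the sulfotransferase SULT2A1 stood at -1.25, and the efflux pump ABCC2 at 0.97. The medians of both lists over all measured members were 0.34 and -0.02. Over all genes above the filter, 6.50% were 2-fold higher and 3.64% lower, and these lists are short. Among 10 bile acid and retinoid genes above the filter, BAAT was 2-fold higher and AKR1D1 2-fold lower. AKR1D1 passed the filter through the parental array alone, so its knockout value was not shown to exceed background. In the same list STRA6, the receptor of retinol-binding protein, was at 0.67 and the retinal dehydrogenase ALDH1A1 at 0.69.

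**Figure D4:**
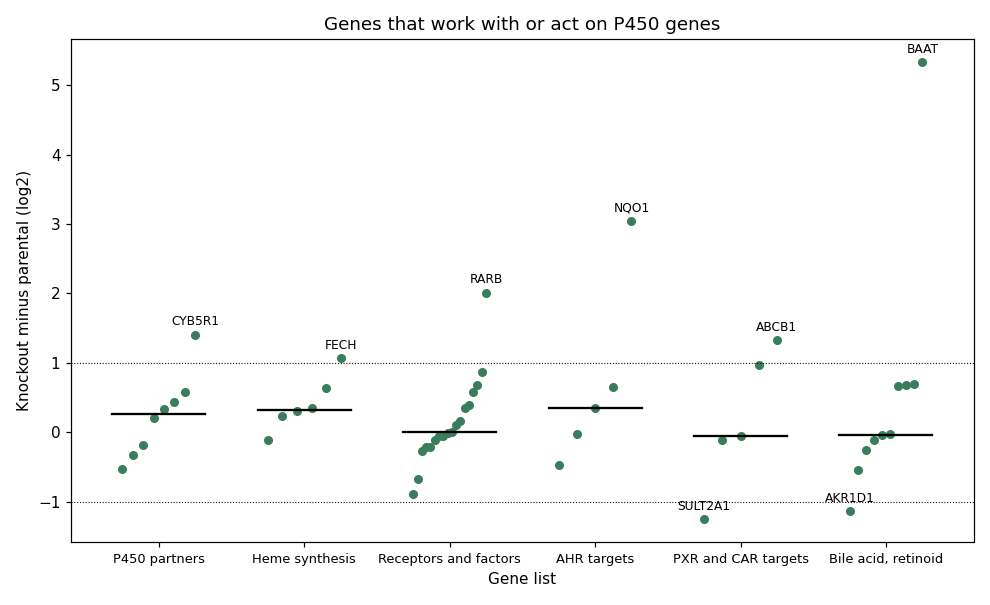
Difference (vertical axis, knockout minus parental, log2) of each gene above the level filter in 6 lists of genes that work with or act on P450s (horizontal axis), with black bars at the list medians over the genes drawn and dotted lines at 2-fold. Names mark the 8 points at least 2-fold apart, with BAAT at 5.34 the highest and SULT2A1 at -1.25 the lowest.

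Among markers of other cell types, 2 were 2-fold higher in the knockout array, beside 6.50% of all genes above the filter. LUM, one of 6 measured fibroblast and stellate markers of which 4 exceeded the filter, stood at 12.69 against 7.90, while COL1A1 differed by -0.45 and THY1 under the filter. The summed log2 level of the 6 markers was 39.6 in the knockout and 35.8 in the parental array, but the median difference was -0.15. Without LUM all 5 others were lower in the knockout array and their sum was 26.9 against 27.9. LYZ, one of 4 measured leukocyte markers, stood at 11.87 against 9.62, while the leukocyte antigen gene PTPRC, at -0.04, and the T cell gene CD3E, at -0.45, lay under the filter. The summed level of the 4 was 26.6 against 24.5, and without LYZ it was 14.8 against 14.9. The 4 endothelial markers lay under the filter (summed level 14.6 against 14.9). The 5 cholangiocyte markers had 4 above the filter and summed levels of 52.6 and 52.3, and the 6 steroidogenic markers 23.0 and 22.5. The lowest values of any transcript cluster were 2.13 in the knockout and 2.12 in the parental array. No marker could therefore stand at 0, and a value above 0 does not show that a marker was expressed. The part of other cells in the P450 differences was not tested.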

How the data were processed

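The deposited log2 values came from RMA, which corrects background, normalizes arrays and summarizes probes; the submitters' processing notes name it beside Transcriptome Analysis Console. Their versions and the genome build: not given in the sources used here. Base 2 is what RMA writes and no label states it. The transcript cluster identifiers are not of the form usual for the Human Transcriptome Array 2.0 that the labels name. Of 135750 transcript clusters, 36176 have 1 gene symbol in the platform annotation, and no gene was named from the 1119 with several. The cluster with the highest mean of both arrays stood for a gene, which gave 33616 genes. Genes at least 2-fold apart were counted by this rule of size, since 1 array per genotype allows no test. All 50 members matched RefSeq (GRCh38.p14) by Entrez identifier, and that assembly served for gene order, chromosomes and promoters. All members could be named, with members under the level filter given mainly by count and range; from other lists the largest differences and the partners of members past 2-fold were named. Members, lists and motifs were chosen with earlier results of these data known. Counting was run on simulated data, which checks the code only and says nothing about these arrays. Python 3.11.15, pandas 2.3.3, numpy 2.4.6 and matplotlib 3.10.9 were used. Alternatives were other ways to pick a cluster, quantile normalization, centring, removal of the level trend (running median of 501 genes), and other filters and fold thresholds. Values without CYP2B6 and CYP1A1, LUM or LYZ were added after seeing the data. Arrays give no depth, and their number limits the precision.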

Additional observations from a re-analysis of the deposited data

How the results depend on the processing

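No paired analysis was possible because each genotype had 1 array, and no array could be left out. Across the 6 ways to pick clusters or normalize, CYP2B6 ran from -5.96 to -5.85, CYP1A1 from 3.40 to 3.49 and CYP24A1 from 1.32 to 1.41, all past 2-fold. CYP3A5 ran from 0.997 to 1.06 and CYP2J2 from 0.93 to 1.02, so each crossed 2-fold under 1 setting. Without a level filter all 50 members were counted and the shares of all genes 2-fold higher and lower were 3.36% and 1.94%. With the filter at the 75th percentile of the higher value (8.55), 7 members were left, of which 1 was 2-fold higher and 1 2-fold lower, beside 7.65% and 3.95% of all genes. At 1.5-fold, 5 members were higher and 2 lower, beside 15.5% and 11.2% of all genes; CYP2J2 and CYP2R1 joined those higher and CYP11B1 the one lower. The counts changed by construction of the filter and threshold. For CYP3A5 and CYP2J2 the cause was not tested. Signals near background limit values under the filter, since no detection calls were at hand.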

Other observations

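P450 pseudogenes were read by the same rule from their symbols. Of 40 measured, 6 exceeded the level filter, none was 2-fold higher and CYP2B7P alone was 2-fold lower, beside 3.64% of all genes above the filter. CYP2B7P passed the filter through the parental array alone, so the size of its difference rests on a knockout value not shown to exceed background. The retrocopies CYP51A1P1 and CYP51A1P2 stood at 9.42 against 8.52 and at 8.53 against 8.32. CYP2D8P, measured by 3 clusters, stood at 5.22 against 5.81 in the cluster with the highest mean. The median difference of all 40 was 0.00. These genes were picked after their values were seen.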
